A study of Rattus norvegicus with 12 samples.

Results

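The genes described here are 7 members of the apelin and adrenomedullin peptide systems, Apln, Aplnr, Adm, Calcrl, Ramp1, Ramp2 and Ramp3, out of 21239 genes with counts. They were chosen by gene symbol and not by a rule on measured values, but earlier results of these data were known. All 7 were expressed highly enough to be tested in every comparison. RNA labelled as left atrium came from 12 male rats, with 3 libraries for each of the 4 groups. The WKY group held normotensive rats and the SHR group hypertensive rats, both fed saline at 7.5 ml/kg/day. Hypertensive rats fed valsartan at 30 mg/kg/day, which blocks the angiotensin receptor, made up the ARB group, and those fed sacubitril/valsartan at 60 mg/kg/day made up the ARNI group, where sacubitril inhibits the peptide-degrading enzyme neprilysin. All rats were 14 weeks old at purchase, were treated for 4 weeks, and come from inbred strains without a transgene. Levels are given as CPM, the count of a gene scaled to a fixed library total.

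Apelin and adrenomedullin are secreted peptides that act through G protein-coupled receptors, mainly on the endothelium and smooth muscle of vessels and on cardiomyocytes. Apelin widens vessels and strengthens cardiac contraction through the receptor APJ, which Aplnr encodes. Adrenomedullin is a vasodilator made by the heart and vessel wall, and its receptor is built from the calcitonin receptor-like receptor, encoded by Calcrl, and 1 of 3 receptor activity-modifying proteins. With the product of Ramp2 or Ramp3 the receptor binds adrenomedullin, and with that of Ramp1 it binds calcitonin gene-related peptide. Both Apln and Adm are known as genes that hypoxia induces.

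The promoters of the 3 members that differed between the SHR and WKY groups are shown first, because the results turn on these genes. Each run gives a RefSeq promoter window of 250 bases on the GRCr8 assembly, 5′ to 3′ on the strand of the gene. The windows are at chrX:132091247-132091496 (minus strand) for Apln, chr1:174179950-174180199 (plus strand) for Adm and chr3:89932617-89932866 (minus strand) for Calcrl. Below, the start means the base that follows the window. The Apln and Adm windows lie inside the annotated genes, at chrX:132058739-132091518 and chr1:174164178-174182372, so they do not precede the outermost annotated start. The Calcrl window borders its gene, which ends at 89932616. Capitals mark matches, on either strand, to GGGCGG, the GC box, and to TATAA, the core of a TATA box.
Apln: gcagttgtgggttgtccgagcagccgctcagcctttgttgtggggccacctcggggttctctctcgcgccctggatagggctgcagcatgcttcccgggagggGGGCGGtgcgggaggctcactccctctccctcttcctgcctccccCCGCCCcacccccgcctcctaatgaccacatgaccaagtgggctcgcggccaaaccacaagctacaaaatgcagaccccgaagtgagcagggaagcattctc
Adm: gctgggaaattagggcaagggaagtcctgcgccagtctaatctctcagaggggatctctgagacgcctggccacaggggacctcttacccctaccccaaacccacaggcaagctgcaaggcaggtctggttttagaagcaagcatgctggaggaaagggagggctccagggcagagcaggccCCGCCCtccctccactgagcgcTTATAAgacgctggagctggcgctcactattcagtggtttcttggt
Calcrl: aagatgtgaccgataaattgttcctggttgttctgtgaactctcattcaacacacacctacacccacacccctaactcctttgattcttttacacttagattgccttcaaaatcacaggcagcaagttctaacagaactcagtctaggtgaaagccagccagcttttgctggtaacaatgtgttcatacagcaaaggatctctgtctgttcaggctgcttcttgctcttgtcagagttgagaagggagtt
The Apln window held the GC box 147 and 102 bases before the start, and the Adm window held it 68 bases before the start. The Adm window also held TATAA 45 bases before the start, where the letters overlap with a match on the other strand. The Calcrl window held neither motif, and its GC content was 43.6%, against 64.8% for Apln and 58.8% for Adm. Among 33469 promoter windows of this length, 30.5% held the GC box and 23.97% held TATAA. The windows of Ramp1 and Ramp3 held 3 and 2 GC boxes, while Aplnr and Ramp2 were not in the sequence table used here. ACGTG, the core of the hypoxia response element, was in 16.6% of all windows and in none of the 5 members' windows, which says only that these letters are not in these 250 bases.

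Before the comparisons, 3 facts about the libraries have to be given. Total counts ranged from 11252361 to 15823525 per library. The group of each library follows its name, although for the WKY and SHR libraries the strain words of the labels say the opposite, and the strain field reads Wistar-Kyoto for treated rats too, beside a hypertensive phenotype. Cd36, a fatty acid transporter that is defective in several SHR colonies, was at 1382 to 1584 CPM in the 3 libraries named WKY and at 63.6 to 285 CPM in the other 9. Mettl24, chosen after its values were seen, was at 3.02 to 3.58 CPM in the 3 libraries named WKY and at no more than 0.0688 CPM in the other 9. By these genes ARNI replicate 2 lay with the other SHR libraries.

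In 4 libraries the label left atrium went against the markers, when checked with 6 atrial and 6 ventricular cardiomyocyte markers. The summed level of the atrial markers was 52.4 to 280 CPM for WKY, 27690 to 77100 CPM for SHR, 36880 to 74320 CPM for ARB and 74.2 to 66780 CPM for ARNI libraries, whose lowest value was that of replicate 2. The atrial gene Mybphl was at 0 to 0.0889 CPM in the WKY libraries and at 0.708 CPM in ARNI replicate 2, against 384 to 877 CPM in the other 8. The summed ventricular markers were at 49050 to 49510 CPM for WKY, 2210 to 14680 for SHR, 2660 to 15210 for ARB and 2712 to 24450 for ARNI libraries. Myl2, the ventricular myosin light chain gene, exceeded 1000 CPM in 6 libraries, with 3489 to 3776 CPM in the WKY group, 2298 CPM in SHR replicate 2, 2573 CPM in ARB replicate 3 and 4161 CPM in ARNI replicate 2, and was at 0.136 to 24.2 CPM in the other 6. SHR replicate 2 and ARB replicate 3 carried both atrial and ventricular markers. Since all WKY libraries have the ventricular profile, strain and chamber cannot be told apart between the WKY and SHR groups.

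The comparison of SHRs with WKY rats asked which members of the 2 systems differ in the hypertensive strain. Adm was upregulated, and Apln and Calcrl were downregulated, while the other 4 members did not pass the test. A gene was called at an adjusted p of at most 0.05 by edgeR's quasi-likelihood test and a log2 fold change of 1 or more in size. These 3 of 7 members stand beside 8.89% of the 13794 genes tested, of which 5.54% were called higher and 3.35% lower in the SHR group. Over all genes tested, the median log2 fold change was 0.01, and with scaling by library size only it was 0.15, where the log2 fold change of Calcrl was −1.002 and it stayed called. In bulk tissue, fewer cells of a type and less RNA per cell cannot be told apart.

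**Figure D1:**
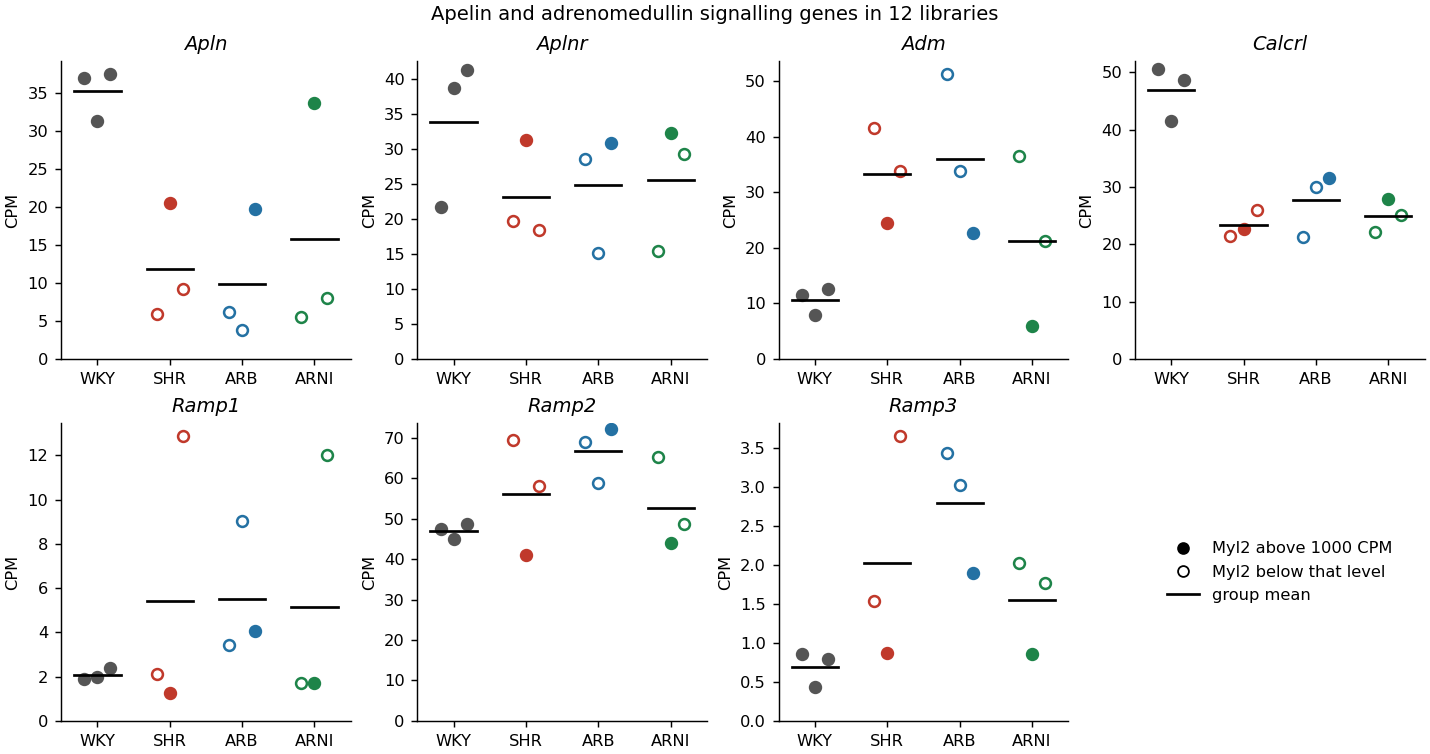
CPM (vertical axes) of the 7 genes in the 12 libraries, by group, 1 point per library, with bars at the group means of 3 libraries. Filled points are libraries with Myl2 above 1000 CPM. Apln is at 31.3 CPM or more in the WKY libraries and in 1 ARNI library, and Calcrl is at 41.4 CPM or more only in the WKY libraries.

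Apln, the apelin precursor gene (gene ID 58812), had values of 37.0, 31.3 and 37.5 CPM among WKY rats and of 5.88, 20.5 and 9.15 CPM among SHRs. Every SHR library was below every WKY library, and SHR replicate 2 was the highest of its group. The log2 fold change was −1.70 ± 0.45 (SE, n = 3 per group), a 3.24-fold lower level, with a 95% interval of −2.77 to −0.62 and an adjusted p of 0.0425 (edgeR). The call did not hold in 1 fit of all 12 libraries (adjusted p of 0.190 by edgeR), nor without WKY replicate 1, 2 or 3 or SHR replicate 1 or 3, where it ranged from 0.0857 to 0.128. Without SHR replicate 2 the log2 fold change was −2.41, with an adjusted p of 0.000294 by edgeR. That library is the only one of the SHR group with Myl2 above 1000 CPM. Leaving it out sets SHR libraries of atrial profile against WKY libraries of ventricular profile, so strain and chamber coincide fully in that fit.

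Aplnr (gene ID 83518), the gene of the apelin receptor, did not pass the test. Its level was 21.7, 38.7 and 41.3 CPM among WKY rats and 19.7, 31.4 and 18.4 CPM among SHRs, so that the groups overlapped. The log2 fold change was −0.67 ± 0.33 (SE, n = 3 per group), with an interval of −1.45 to 0.11 and an adjusted p of 0.173 by edgeR.

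Adm (gene ID 25026), the adrenomedullin precursor gene, had values of 11.5, 7.89 and 12.6 CPM among WKY rats and of 41.5, 24.5 and 33.7 CPM among SHRs. The groups did not overlap, and the lowest SHR library was again replicate 2. The log2 fold change was 1.49 ± 0.24 (SE, n = 3 per group), a 2.82-fold higher level, with an interval of 0.92 to 2.07 and an adjusted p of 0.0126 by edgeR. Without WKY replicate 1 or 2 the adjusted p was 0.0579 or 0.0530, and in 1 fit of all 12 libraries it was 0.0880, all by edgeR.

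Calcrl (gene ID 25029) encodes the 7-helix part of the adrenomedullin receptor. It had values of 50.5, 41.4 and 48.7 CPM among WKY rats and of 21.5, 22.6 and 26.0 CPM among SHRs, with little spread in either group. The log2 fold change was −1.14 ± 0.11 (SE, n = 3 per group), a 2.21-fold lower level, with an interval of −1.41 to −0.88 and an adjusted p of 0.00332 by edgeR. It had the lowest p of the 7 members and was the only one called in every fit run, including those without each library in turn, where the log2 fold change was −1.23 to −1.09.

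The 3 receptor activity-modifying protein genes did not follow Calcrl downward. Ramp2 (gene ID 58966) had values of 47.6, 44.9 and 48.6 CPM among WKY rats and of 69.3, 41.1 and 58.0 CPM among SHRs, with a log2 fold change of 0.11 ± 0.17 (SE) and an adjusted p of 0.648 by edgeR. Its interval, −0.30 to 0.52, excludes a change of the size seen for Calcrl.

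Ramp3 (gene ID 56820) had values of 0.852, 0.435 and 0.800 CPM among WKY rats and of 1.54, 0.867 and 3.66 CPM among SHRs. The groups did not overlap, but the level was low, with 5 to 54 counts per library over all groups. The WKY libraries held 10, 5 and 9 counts and the SHR libraries 23, 11 and 54. Ramp3 thus passed the filter on low counts mainly through the SHR group, where it was higher, so its tests are a description only. The same limit holds for Ramp3 wherever the WKY group is compared. The log2 fold change was 1.37 ± 0.57 (SE, n = 3 per group), with an interval of 0.00 to 2.74 and an adjusted p of 0.127 by edgeR. Without SHR replicate 2, the SHR library that carries ventricular markers, Ramp3 was called higher, with a log2 fold change of 1.70 and an adjusted p of 0.0342 by edgeR. Without SHR replicate 3 the log2 fold change was 0.69 (adjusted p of 0.307 by edgeR), and without WKY replicate 2 it was 1.12 (adjusted p of 0.308).

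Ramp1 (gene ID 58965) had values of 1.88, 2.00 and 2.40 CPM among WKY rats and of 2.14, 1.26 and 12.9 CPM among SHRs. A single SHR library set its mean, and the log2 fold change of 1.19 ± 0.81 (SE, adjusted p of 0.314 by edgeR) became −0.39 without SHR replicate 3. In all, 4 of 7 members had groups that did not overlap, beside 49.6% of all genes tested.

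**Figure D2:**
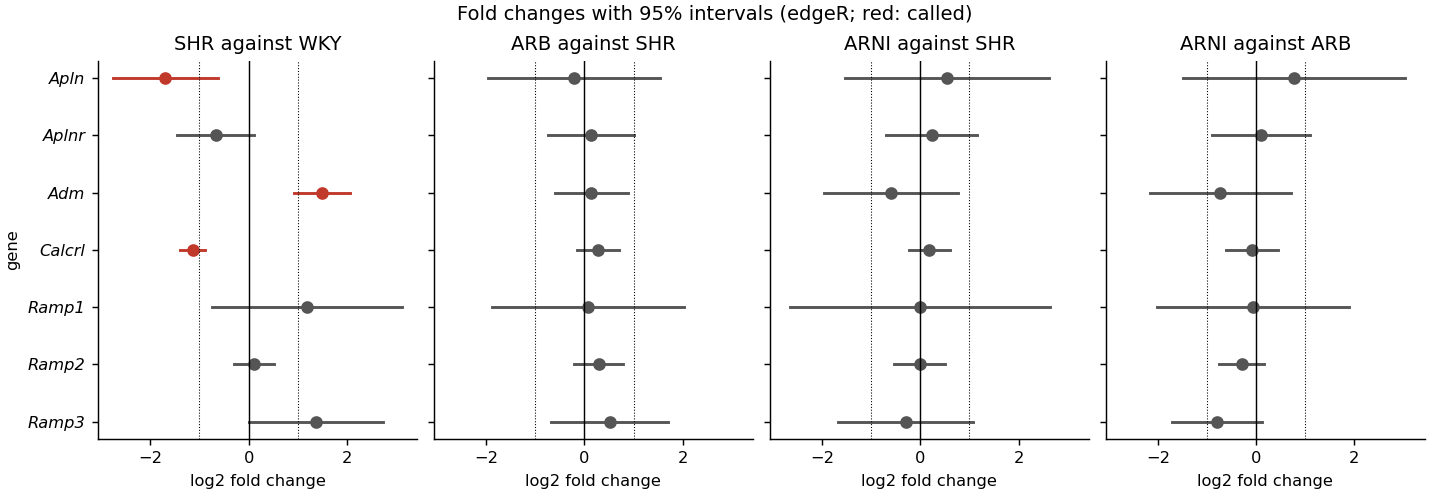
Log2 fold changes (horizontal axes) of the 7 genes in 4 comparisons, with 95% intervals from edgeR, and dotted lines at the threshold of 1. Apln, Adm and Calcrl, in red, were called between the SHR and WKY groups, and every interval of the 3 drug comparisons includes 0.

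No member passed the test between either drug group and the SHR group. Valsartan was compared with saline in SHRs, and the 7 members had adjusted p-values of 0.9999 by edgeR. None of 7 members was called, beside 0.0% of 13979 genes, and 0 of 7 had an unadjusted p under 0.05, beside 1.61% of all genes. DESeq2 called 3 genes, none of them a member. No member had groups without overlap, beside 5.39% of all genes.

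Apln was at 6.15, 3.85 and 19.7 CPM in the ARB libraries, within the range of the SHR libraries apart from the lowest. Adm was at 51.3, 33.8 and 22.6 CPM, and Calcrl at 21.3, 30.1 and 31.6 CPM. The intervals show what the design could resolve: for Calcrl the log2 fold change between the ARB and SHR groups was 0.28, with an interval of −0.15 to 0.71, and for Ramp2 it was 0.29, with an interval of −0.21 to 0.79. For Apln the interval, −1.97 to 1.55, includes both no change and a fall as large as that between the WKY and SHR groups.

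Aplnr was at 28.6, 15.2 and 30.8 CPM in the ARB libraries, and Ramp2 at 69.0, 58.9 and 72.1 CPM. Ramp1 was at 3.44, 9.01 and 4.04 CPM and Ramp3 at 3.44, 3.03 and 1.90 CPM. All 4 overlapped with the SHR libraries.

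Sacubitril/valsartan was compared with saline in the same SHR libraries, and the adjusted p-values of the 7 members were 0.9993 by edgeR. None of 7 members was called, beside 0.0% of 13955 genes, and 0 of 7 had an unadjusted p under 0.05, beside 1.63% of all genes. DESeq2 called 7 genes, none of them a member. No member had groups without overlap, beside 6.56% of all genes.

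Replicate 2 of the ARNI group lay apart from the other 2 in both ligands. Apln was at 5.56, 33.6 and 8.01 CPM in the ARNI libraries, and its log2 fold change against the SHR group, 0.55 with all libraries, was −0.81 without that replicate. Adm was at 36.6, 5.90 and 21.2 CPM, and its log2 fold change of −0.60 was −0.18 without that replicate.

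Among the receptor genes, Calcrl was at 22.1, 27.9 and 25.04 CPM in the ARNI libraries, with a log2 fold change of 0.19 against the SHR group and an interval of −0.24 to 0.61. Aplnr was at 15.4, 32.3 and 29.2 CPM and Ramp2 at 65.2, 44.0 and 48.7 CPM. Ramp1 was at 1.71, 1.73 and 12.0 CPM, and Ramp3 at 2.02, 0.865 and 1.76 CPM, lowest in replicate 2.

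Both drug comparisons share the SHR libraries, so the ARNI group was also compared directly with the ARB group. None of 7 members was called, beside 0.0% of 13948 genes, and 0 of 7 had an unadjusted p under 0.05, beside 3.86% of all genes. DESeq2 called 18 genes, none of them a member. No member had groups without overlap, beside 10.5% of all genes. Valsartan is given in both groups, and sacubitril, the neprilysin inhibitor, only in the ARNI group, but the doses of 30 and 60 mg/kg/day are those of different products. The lowest unadjusted p was that of Ramp3, with a log2 fold change of −0.80 and an interval of −1.72 to 0.12, and the interval for Calcrl was −0.62 to 0.45.

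The treated groups were also compared with the WKY group, in comparisons added after the values were seen, which share the WKY libraries with the first. Strain, drug and chamber profile differ together here and cannot be told apart. The number of members called therefore does not compare the 2 drugs. Between the ARB and WKY groups 4 of 7 members were called, beside 11.1% of all genes tested. Apln was lower (log2 fold change of −1.90), and Adm (1.66), Ramp1 (1.28) and Ramp3 (1.90) were higher, with adjusted p-values of 0.0106 to 0.0463 by edgeR. Calcrl had a log2 fold change of −0.85, below the size threshold, with an adjusted p of 0.0136 by edgeR. Leaving out single libraries gave 1 (without WKY replicate 2, Adm only) to 5 (without ARB replicate 3) members called. Of the 7 members, 6 had groups without overlap, beside 48.3% of all genes.

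Between the ARNI and WKY groups none of 7 members was called, beside 0.249% of all genes, and DESeq2 also called none of them. Calcrl and Ramp3 had an unadjusted p under 0.05 by edgeR, and the same 2 members had groups without overlap, beside 25.7% of all genes. Without ARNI replicate 2, which has a ventricular profile as the WKY libraries do, Apln (log2 fold change of −2.50), Adm (1.32) and Calcrl (−1.11) were called. The WKY group had the highest mean of Apln, Aplnr and Calcrl, below which the order of the groups differed. The 3 SHR groups overlapped with each other in all 7 members.

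The members fell into different patterns over the 12 libraries, beside the level of Myl2. In each of the 3 SHR groups there was 1 library with Myl2 above 1000 CPM, and in each of these groups that library had the highest Apln, the highest Aplnr, the lowest Adm and the lowest Ramp3. Apln was at 19.7 to 37.5 CPM in the 6 libraries with high Myl2 and at 3.85 to 9.15 CPM in the other 6, without overlap. Adm was at 5.90 to 24.5 CPM in the 6 libraries with high Myl2 and at 21.2 to 51.3 CPM in the other 6. For these 4 genes, the part of chamber in the strain difference was not tested, since no WKY library has an atrial profile. Pam and the atrial gene Myl7 also did not overlap between the libraries with high and low Myl2. The share of all genes with such patterns was not counted, so they are not read as particular to the members.

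Calcrl was the highest of its group in the library with high Myl2 in the ARB group (31.6 CPM) and the ARNI group (27.9 CPM), and the middle one in the SHR group (22.6 CPM). In ARNI replicate 2, with the highest Myl2 of all libraries, it was at 27.9 CPM. This lay within the 21.3 to 31.6 CPM of the other libraries of the SHR groups and below the 41.4 to 50.5 CPM of the WKY group. Apln in the same library, at 33.6 CPM, lay within the 31.3 to 37.5 CPM of the WKY group. Both values come from a single library, and a cause was not tested. SHR replicate 2, ARB replicate 3 and ARNI replicate 2 were also left out, a choice made after the values were seen. Apln (log2 fold change of −2.40), Adm (1.66), Calcrl (−1.15) and Ramp3 (1.71) were then called between the SHR and WKY groups. In that fit all SHR libraries have the atrial and all WKY libraries the ventricular profile.

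**Figure D3:**
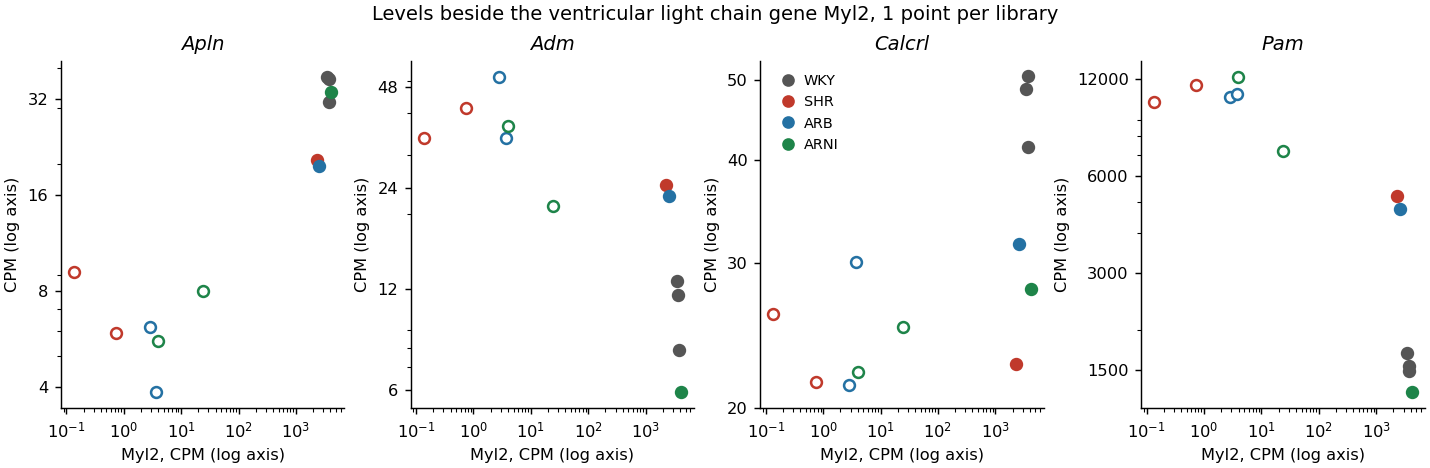
CPM of Apln, Adm, Calcrl and Pam (vertical log axes) against CPM of the ventricular gene Myl2 (horizontal log axes), 1 point per library, coloured by group and filled where Myl2 exceeds 1000 CPM. For Apln, Adm and Pam the ARNI library with the highest Myl2 lies beside the WKY libraries, and for Calcrl it lies with the SHR groups.

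Because Calcrl and Ramp2 encode the 2 parts of 1 adrenomedullin receptor, the ratio of their CPM was taken in each library. It is read only between libraries, since transcript lengths were not used. The log2 ratio of Ramp2 to Calcrl was −0.09, 0.12 and 0.00 in the WKY libraries and 0.66 to 1.69 in the other 9, without overlap. Calcrl alone also separated these libraries, at 41.4 to 50.5 CPM in WKY and 21.3 to 31.6 CPM in the other 9. Of single genes, 49.6% did not overlap between the 3 SHR and 3 WKY libraries. No such share was taken for ratios, nor for the WKY libraries against the other 9. The mean of the ratio was 0.01 ± 0.10 in the WKY group, 1.24 ± 0.42 in the SHR group, 1.28 ± 0.37 in the ARB group and 1.06 ± 0.46 in the ARNI group (SD, n = 3 each).

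The other ratios were more spread. The log2 ratio of Adm to Calcrl, ligand to receptor, was −2.39 to −1.95 in the WKY libraries and 0.11 to 0.95 in the SHR libraries, but −2.24 in ARNI replicate 2. The log2 ratio of Apln to Aplnr was −0.31 to 0.77 in the WKY group and −1.75 to −0.61 in the SHR group, and 0.06 in ARNI replicate 2. The ratio of Ramp3 to Calcrl was −6.57 to −5.89 in the WKY libraries and −5.01 to −2.63 in the other 9. That of Ramp1 to Calcrl was −4.75 to −4.34 in the WKY libraries and −4.165 to −1.01 in the other 9. Like the ratio of Ramp2, both were thus without overlap, and Calcrl is a part of each of these ratios.

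**Figure D4:**
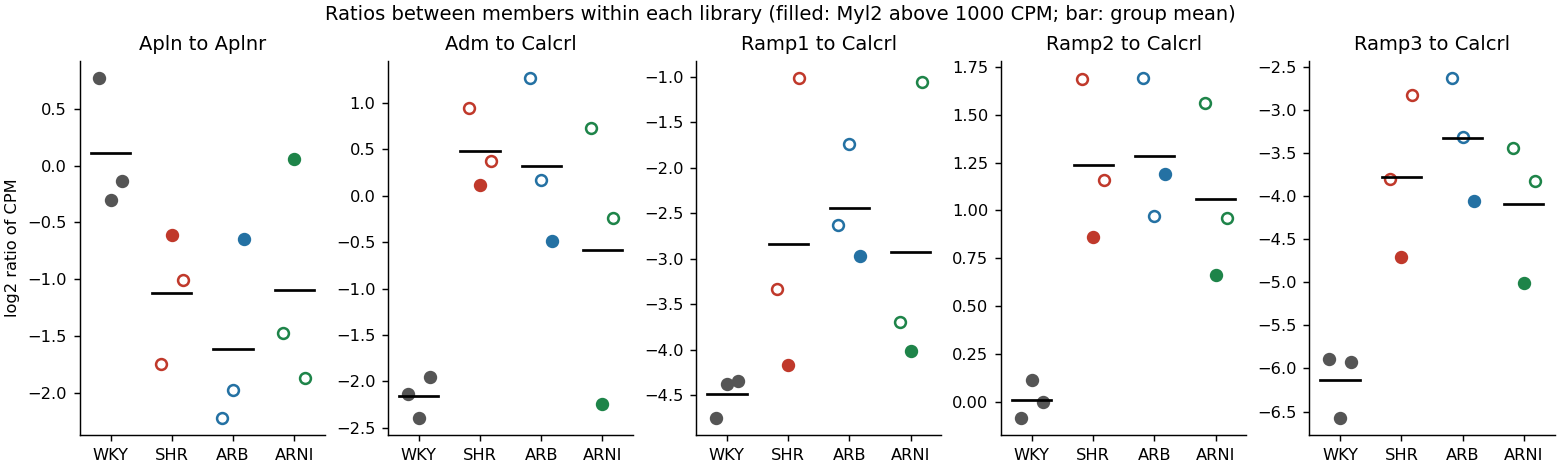
Log2 ratios of CPM (vertical axes) between members within each library, by group, with bars at the mean of 3 libraries and filled points where Myl2 exceeds 1000 CPM. The ratio of Ramp2 to Calcrl is 0.12 or less in the WKY libraries and 0.66 or more in the others. The ratios of Ramp1 and Ramp3 to Calcrl do not overlap either, whereas for Adm to Calcrl 1 ARNI library lies in the WKY range.

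Calcrl, Ramp2 and Aplnr are largely genes of the endothelium, so endothelial markers were set beside them. The summed level of 13 markers was 1453 to 1521 CPM for WKY, 1223 to 1900 for SHR, 1026 to 1831 for ARB and 1229 to 2090 for ARNI libraries. Vwf alone was at 273.5 to 401.8 CPM in WKY, 325.1 to 678.6 in SHR, 180.5 to 779.7 in ARB and 281.1 to 902.2 in ARNI libraries. The sum, and levels given relative to it, thus rest in large part on this marker. Of the 13 markers none was called between the SHR and WKY groups, their median log2 fold change was −0.25, and Flt1 (−0.87) and Cdh5 (−0.79) had adjusted p-values of 0.0133 and 0.0265 by edgeR. Relative to the summed markers, the log2 level of Calcrl was −5.13 to −4.90 in the WKY libraries and −6.57 to −5.02 in the other 9, with ARB replicate 3 inside the WKY range. Of other marker lists, 4 of 5 epicardial genes were called higher, 2 of 9 mural and smooth muscle genes (Myh11 and Kcnj8) and 2 of 6 macrophage genes (Cd163 and Mrc1) were called lower, Alas2 of 4 erythroid genes was called lower, Prph of 3 tested neuronal genes was called higher, and 0 of 6 lymphatic genes, 0 of 6 fibroblast genes and 0 of 1 tested adipocyte gene were called. The erythroid markers summed to 1033 to 2159 CPM in WKY, 402 to 1101 in SHR, 410 to 3841 in ARB, highest in replicate 3, and 244 to 958 in ARNI. Their part in the members' levels was not tested. Pecam1, 1 of the 13 endothelial markers, had a log2 fold change of 0.15 (adjusted p of 0.517 by edgeR), on the other side of 0 from the list median of −0.25.

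Ramp1 moved with markers of other tissue. Its 3 highest values, 12.9 CPM in SHR replicate 3, 12.0 CPM in ARNI replicate 3 and 9.01 CPM in ARB replicate 2, were in the 3 libraries with the highest sums of 6 fibroblast markers, which were 2756, 1923 and 1661 CPM against 778 to 1610 CPM in the other 9. The same 3 libraries had the highest sums of 5 epicardial and mesothelial markers, 322, 229 and 204 CPM, against 39.5 to 187 CPM in the other 9. By group, these sums were 49.1 to 63.5 CPM in WKY, 158 to 322 in SHR, 64.7 to 204 in ARB and 39.5 to 229 in ARNI. The 6 adipocyte markers summed to 434 CPM in ARB replicate 2 and to 237 CPM in ARNI replicate 3, against 2.72 to 23.99 CPM in the other 10, and the 6 neuronal markers to 165 CPM in ARNI replicate 3, against 7.78 to 27.3 CPM. By group, fibroblast sums were 1259 to 1427 CPM in WKY, 807 to 2756 in SHR, 1098 to 1661 in ARB and 778 to 1923 in ARNI. The part of these markers in the level of Ramp1 was not tested.

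The other ligands, receptors and processing enzymes of the 2 systems were described from a list of 14 genes, of which 8 were expressed enough to be tested between the SHR and WKY groups. Pam was called higher and Mme lower, and the list's median log2 fold change was 0.39, against 0.01 for all genes. Pam encodes the enzyme that amidates peptides such as adrenomedullin, a step needed for their activity. It had values of 1487, 1549 and 1695 CPM among WKY rats and of 11550, 5216 and 10200 CPM among SHRs, with a log2 fold change of 2.36 ± 0.31 (SE) and an adjusted p of 0.00738 by edgeR. Pam was at 1283 to 5216 CPM in the 6 libraries with high Myl2, lowest in ARNI replicate 2, and at 7213 to 12230 CPM in the other 6.

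Mme encodes neprilysin, the enzyme that sacubitril inhibits and that cleaves many peptides, adrenomedullin and apelin among them. Its level was low, at 2.30, 2.09 and 2.40 CPM among WKY rats and at 0.201, 0.394 and 1.22 CPM among SHRs, with a log2 fold change of −2.03 ± 0.55 (SE) and an adjusted p of 0.0450 by edgeR. It was at 0.463, 4.13 and 0.793 CPM in the ARB libraries and at 0.190, 1.73 and 6.99 CPM in the ARNI libraries, so that its 2 highest values were in the libraries with adipocyte markers.

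Furin, a protease of peptide precursors, had a log2 fold change of 0.60 and an adjusted p of 0.0242 by edgeR, below the size threshold. Ackr3, a receptor that takes up adrenomedullin (0.19), Ece1, an endothelin-converting protease (0.84), and Crcp, a receptor component (0.12), had adjusted p-values of 0.138 to 0.805 by edgeR. Calca and Calcb, which encode calcitonin gene-related peptides, Calcr, the calcitonin receptor gene, and Adm2, the gene of a related ligand, were at 0 to 0.138 CPM in every library, below the level of 3 reads, 0.190 to 0.267 CPM.

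Of 109 genes tested from a hand-written list of the apelin pathway, 5 were called higher and 2 lower between the SHR and WKY groups, which is 6.42% beside 8.89% of all genes, and the median log2 fold change was −0.06. Called higher were Myl4, an atrial myosin light chain (10.59), Gng2, a G protein gamma subunit (3.46), and Prkag2, a subunit of AMP-activated kinase (2.23). Itpr1, a calcium release channel (1.41), and Mylk2, a myosin kinase (2.26), were the others of the 5. Mylk2 levels were low, with 0.17, 0.52 and 0.18 CPM among WKY rats, below the level of 3 reads in replicates 1 and 3. Its values among SHRs were 1.74, 0.95 and 2.03 CPM, and its test is a description only. The 2 lower genes were Prkag3 (−1.30), another subunit of AMP-activated kinase, and Pik3cg (−1.15), the catalytic subunit of a phosphoinositide kinase. Myl4 belongs to the atrial markers as well, and Gng2, Prkag2 and Myl4 were at 4.17, 28.9 and 20.9 CPM in ARNI replicate 2, against 51.9, 156 and 4032 CPM or more in the other 8 libraries of the SHR groups.

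Of 24 genes of cyclic AMP signalling, the pathway that the adrenomedullin receptor activates, none was called between the SHR and WKY groups by edgeR, and the median log2 fold change was −0.17. Rapgef3, a cyclic AMP-dependent exchange factor (−0.78), and the adenylyl cyclases Adcy6 (−0.66) and Adcy5 (0.42) passed at an adjusted p alone, with values of 0.0237 to 0.0286. Of 25 genes that hypoxia induces or that mediate it, Eno1, a glycolytic enzyme (1.02), was called higher, and Epas1, a hypoxia-inducible factor (−1.06), and Vegfa, an angiogenic factor (−1.21), were called lower, with adjusted p-values of 0.0159 to 0.0304 by edgeR and a list median of −0.23. These 3 calls are 12.0% of the list, near the 8.89% of all genes. None of the genes of these 4 lists was called in the 3 drug comparisons.

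**Figure D5:**
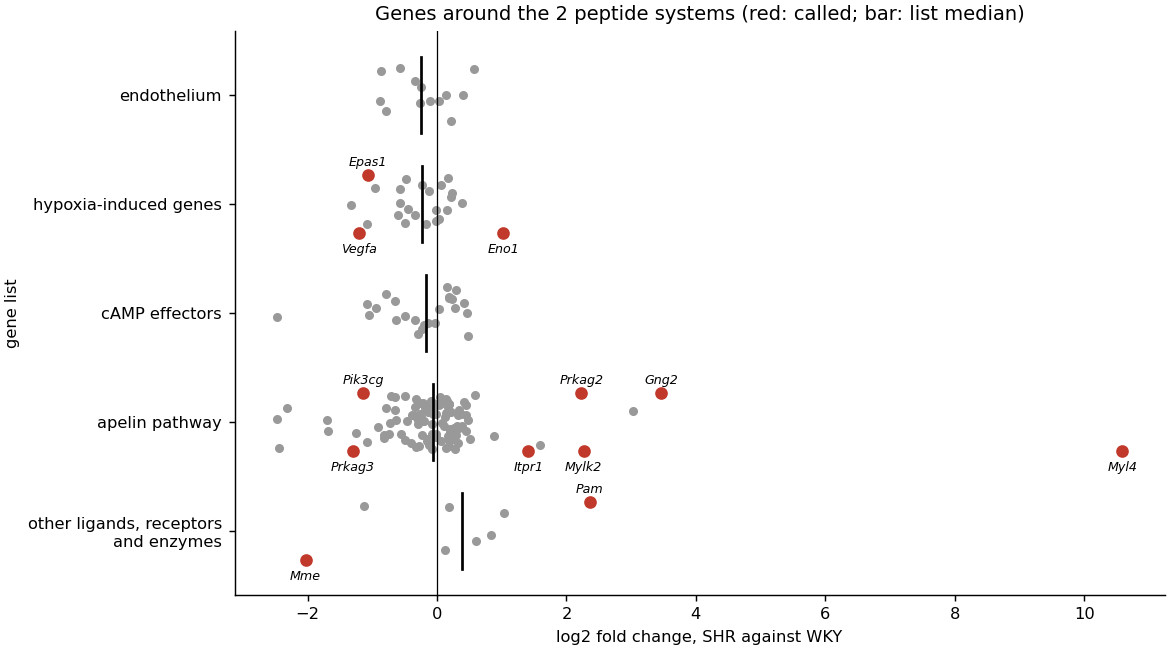
Log2 fold changes between the SHR and WKY groups (horizontal axis) of the tested genes of 4 lists around the 2 peptide systems and of the endothelial markers, 1 point per gene, called genes in red with their symbols and bars at list medians. The list medians lie between −0.25 and 0.39, and Myl4, at 10.59, lies farthest from 0.

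The genes whose log2 CPM followed each member most closely over the 12 libraries are given as a description among 14452 genes, since the libraries share group and chamber differences. For Apln they were Kifc3 (r = 0.99) and Trip10 (r = 0.99), with r of 0.99 and 0.97 over the 8 libraries other than the WKY group and ARNI replicate 2. For Adm they were Gba3 and Vamp7 (both 0.98), with 0.97 and 0.94 over the 8 libraries. For Calcrl the closest was Spag1 (0.98), with 0.91 over the 8.

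For Ramp1 they were Rab7b and Numbl (both 0.95), with 0.98 and 0.94 over the 8 libraries. For Aplnr they were Dohh (0.92) and Trmt1 (0.91), for Ramp2 LOC100912282 (0.92) and Shf (0.90), and for Ramp3 Atp10a and Six5 (both 0.94). No member was among the 2 closest genes of another member.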

How the data were processed

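Per the labels and the study's methods, oligo-dT libraries of left atrial RNA were sequenced with single-end reads, which the authors filtered with SOAPnuke and aligned with HISAT2 2.0.4 and Bowtie2 2.2.5, and the submitters' processing notes name the build Rnor 6.0. The authors deposited expected counts per gene from RSEM, estimated counts without normalization, and 23.6% of values were not whole. A further 2 deposited columns hold the authors' fold change and p-value and were not used.

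Expected counts were rounded and compared between groups, 6 libraries at a time, with edgeR 4.0.16 under R 4.3.3 (filterByExpr, TMM scaling, quasi-likelihood test, Benjamini-Hochberg adjustment over all genes tested), and intervals are 95% intervals from the same fit. CPM use the deposited counts and total counts, without TMM. Total counts ranged from 11252361 to 15823525, and 3 reads, the limit of a count of 0 (counting error only), were 0.190 to 0.267 CPM. Alternatives were DESeq2 1.42.0, other scalings, no filter, 1 fit of all 12 libraries, a replicate block and libraries left out. The tests were checked on simulated counts with 1 spread for all genes and both groups, so the check does not cover the unequal spread of these libraries. The labels number the libraries but do not name animals, and p-values measure the spread between these libraries.

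Members and gene lists were chosen with earlier results of these data known. All members are named, with the 2 genes most alike in log2 CPM to each, the tested processing genes, and up to 4 called genes per pathway list (by adjusted p), beyond which Mylk2, Pik3cg, Prkag3 and genes called only by adjusted p were named after their values were seen. Some genes that this rule names are not reported here. Motifs were searched in RefSeq promoter windows of GRCr8, where all 7 members were found by gene ID and 5 had a window. Python 3.11.15 with pandas 2.3.3 and matplotlib 3.10.9 was used.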

Additional observations from a re-analysis of the deposited data

How the results depend on the processing

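Between the SHR and WKY groups, 3 members were called by edgeR, DESeq2, RLE scaling, library size only and without a filter, and Calcrl was called in every fit. In 1 fit of all 12 libraries 1 member (Calcrl) was called, and without single libraries 1 to 4 were. Between the ARB and WKY groups 1 member was called in that fit instead of 4, and 1 to 5 without single libraries. Between the ARNI and WKY groups 0 to 3 were called without single libraries, and 3 with 9 libraries, a choice made after seeing the data that left out SHR replicate 2, ARB replicate 3 and ARNI replicate 2. Scaling by library size only moved the median over all genes to a log2 fold change of 0.15 between the SHR and WKY groups. The causes of these changes were not tested.

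The replicate number as a block left 2 members called between the SHR and WKY groups, Adm and Calcrl (adjusted p of 0.0711 for Apln by edgeR), and 3 between the ARB and WKY groups. Whether the numbers pair the libraries was not settled: 5 of 18 same-numbered pairs had a correlation over 0.1 (range −0.45 to 0.52), and 4 libraries correlated best with their own number. Replicate 1 of the SHR group had correlations of 0.418 with that of ARB and 0.509 with that of ARNI. ARB replicate 3 and ARNI replicate 2, both with high Myl2, had 0.585. The part of chamber in these values was not tested.

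No log2 fold change that turned sign had an adjusted p of 0.05 or less with all libraries. Without single libraries Ramp1 ranged from −0.39 to 1.63 and Ramp2 from −0.072 to 0.27 between SHR and WKY. Between ARB and SHR, Apln ranged from −1.26 to 0.51, Aplnr from −0.094 to 0.47, Adm from −0.21 to 0.36 and Ramp1 from −0.41 to 1.65. Between ARNI and SHR, Apln ranged from −0.81 to 1.26, Aplnr from −0.060 to 0.56, Ramp1 from −1.49 to 1.59, Ramp2 from −0.17 to 0.17 and Ramp3 from −0.64 to 0.39. Between ARNI and ARB, Apln ranged from −0.60 to 1.82, Aplnr from −0.19 to 0.38, Calcrl from −0.25 to 0.075 and Ramp1 from −1.55 to 0.41. Between ARNI and WKY, Ramp1 ranged from −0.29 to 1.62 and Ramp2 from −0.051 to 0.19. With 9 libraries Ramp1 was −0.23 between ARB and SHR and 0.17 between ARNI and ARB, and Apln was −0.089 between ARNI and SHR, as with 10 libraries (SHR replicate 2 and ARNI replicate 2 left out). Between ARNI and SHR, Ramp1 was 0.028 by DESeq2, 0.025 by RLE scaling, 0.011 in 1 fit of all 12 libraries and 0.056 with the replicate block, and Ramp2 was 0.0068 by DESeq2 and 0.0055 by RLE scaling. In all, 478 of the members' log2 fold changes kept their sign and side of the threshold under an alternative, 27 lost and 14 gained significance, and 41 turned sign. Ramp3 had the lowest counts of the members, 5 to 54 per library.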
